A study of Mus musculus with 9 samples.

Results

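The genes described here encode the machinery of oxidative phosphorylation in mouse BC3H1 cells, and they were chosen by name. A gene was a member if a probe set of the array carried its symbol alone and that symbol began with Nduf, Uqcr, Cox4 to Cox8 or Atp5, or was Sdha, Sdhb, Sdhc or Sdhd. That gave 90 genes of the 18193 genes with such a probe set. Of the 90 genes, 34 encode subunits of complex I, 8 are complex I assembly factors, 4 encode complex II, 8 complex III, 19 complex IV and 17 complex V. A further 8 names, such as Ndufa11 and Ndufs6, occurred only in entries that hold several symbols and were not used. Each gene was represented by its brightest probe set, and 87 of the 90 were bright enough to be tested. The 3 that were not were Cox6b2, Cox8b and Ndufa4l2, forms of complex IV subunits known from testis, from heart and skeletal muscle, and from cells short of oxygen.

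Total RNA had been hybridised to 9 Affymetrix expression arrays of the mouse genome, 3 in each of 3 groups. Sensitive cells were BC3H1, a line of muscle-like character derived from a brain tumour, and received either the solvent DMSO or 100 nM rapamycin for 24 h. The resistant cells, named RR1, were 1 line raised from BC3H1 by 6 months in 1 uM rapamycin and were kept in 1 uM. Both rapamycin groups therefore differ in dose and time as well as in line, and resistant cells without the drug were not analysed here. In the comparisons that involve RR1, the line, its history and the drug cannot be told apart. Rapamycin inhibits mTOR complex 1, a kinase that couples nutrients to growth.

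Oxidative phosphorylation is carried out in the inner mitochondrial membrane. Complexes I and II pass electrons from NADH and succinate to ubiquinone, complex III passes them to cytochrome c, and complex IV passes them to oxygen. Complexes I, III and IV pump protons as they do so, and complex V, the ATP synthase, lets the protons back to make ATP. Most subunits are encoded in the nucleus and imported, while a few core subunits are encoded by mitochondrial DNA. In muscle some complex IV subunits exist as separate tissue isoforms. mTOR complex 1 is known to act on this system through translation of nuclear mRNAs and through transcription factors of mitochondrial genes.

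The regions upstream of 5 members are shown because the results below turn on these genes: Ndufaf4 fell most under rapamycin, Cox7a2l rose most, Atp5md differed most between the resistant and the DMSO cells, and Atp5g1 and Atp5g2 encode the same mature protein of the ATP synthase. Each sequence is the 250 bases before the annotated start of the gene in RefSeq (build GRCm38.p6), read 5′ to 3′ on the strand of the gene. The places are chr4:24897833-24898082 on the plus strand for Ndufaf4, and on the minus strand chr17:83514334-83514583 for Cox7a2l, chr19:47090648-47090897 for Atp5md, chr11:96075632-96075881 for Atp5g1 and chr15:102671048-102671297 for Atp5g2. Capitals mark matches to 4 short motifs on either strand: GCATGCG, the core of the site of NRF1, CCGGAAG for ETS factors such as GABP, AAGATGG for YY1 and CACGTG, the E-box.
Ndufaf4: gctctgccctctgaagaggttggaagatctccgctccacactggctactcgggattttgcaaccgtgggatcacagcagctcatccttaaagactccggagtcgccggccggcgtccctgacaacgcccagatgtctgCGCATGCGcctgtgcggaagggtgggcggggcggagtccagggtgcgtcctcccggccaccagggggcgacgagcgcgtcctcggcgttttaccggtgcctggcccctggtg
Cox7a2l: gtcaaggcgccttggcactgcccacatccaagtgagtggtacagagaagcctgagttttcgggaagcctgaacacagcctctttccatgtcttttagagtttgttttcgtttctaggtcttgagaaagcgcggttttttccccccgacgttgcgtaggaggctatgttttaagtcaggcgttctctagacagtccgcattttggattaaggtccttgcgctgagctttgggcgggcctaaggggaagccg
Atp5md: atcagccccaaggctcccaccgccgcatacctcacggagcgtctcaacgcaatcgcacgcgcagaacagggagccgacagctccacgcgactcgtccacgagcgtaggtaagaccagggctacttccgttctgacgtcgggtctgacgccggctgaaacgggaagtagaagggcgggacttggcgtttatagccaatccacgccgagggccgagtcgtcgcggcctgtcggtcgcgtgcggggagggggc
Atp5g1: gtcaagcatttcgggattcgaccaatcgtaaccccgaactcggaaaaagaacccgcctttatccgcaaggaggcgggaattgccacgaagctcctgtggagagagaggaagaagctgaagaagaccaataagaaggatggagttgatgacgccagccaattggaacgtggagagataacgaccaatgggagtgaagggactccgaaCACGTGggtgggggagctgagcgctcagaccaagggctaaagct
Atp5g2: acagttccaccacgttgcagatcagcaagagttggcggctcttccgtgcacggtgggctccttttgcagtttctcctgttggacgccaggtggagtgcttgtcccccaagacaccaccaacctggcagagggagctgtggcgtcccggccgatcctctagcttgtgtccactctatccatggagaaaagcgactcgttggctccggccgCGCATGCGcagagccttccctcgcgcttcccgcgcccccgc
The NRF1 letters stood on both strands, overlapping by all but 1 base, with their first base 112 bases before the start of Ndufaf4 and 41 bases before that of Atp5g2. Atp5g1 had an E-box 44 bases before its start, and neither Cox7a2l nor Atp5md had any of the 4 motifs in the stretch shown. In the whole windows of 300 bases (250 before the start and 50 after it), 74 members matched the RefSeq table. Of these genes, 16.2% held the NRF1 letters, against 7.08% of the genes tested on the arrays and 4.01% of all genes in the table. By complex, 2 of 31 genes of complex I (6.45%) and 1 of 13 of complex IV (7.69%) held them. In complexes II, III and V it was 1 of 3, 2 of 5 and 4 of 15, and among the assembly factors 2 of 7. The ETS letters were in 25.7% of the members, 19.2% of tested genes and 9.93% of all. The YY1 letters were in 14.9%, 8.17% and 7.28%, and the E-box in 8.11%, 11.3% and 8.09%. These are counts of letters, not of bound sites.

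The deposited values are linear signals. An array differed from its group before any test: the third DMSO array had a median signal of 66.0, where the other arrays had 33.3 to 44.2, and 17.4% of its values were under 16, where theirs were 29.4% to 34.8%. The members are bright genes: their median stood at the 97.1 percentile of the tested genes, and 70 of the 87 lay above the 90 percentile. On the third DMSO array the members lay lower than on the other arrays of that group, with a median deviation from the gene mean of -0.25 on the log2(signal + 16) scale against -0.06 on both others. Its part in the results was not tested beyond leaving it out, and counts without it are given below. Summed signals of 8 smooth muscle markers ran from 22460 to 30341 on the DMSO arrays, 27238 to 27847 in the sensitive rapamycin group and 7336 to 9024 in the resistant line. Skeletal muscle marker sums were 2261 to 2716, 2190 to 2548 and 1530 to 1654 in the same order, but of 7 tested markers 3 were higher and 3 lower in the resistant line than in DMSO. Neuron and glia marker sums were at most 631 and 349 on any array. In RNA of whole cultures, fewer cells of a type and less RNA per cell cannot be told apart.

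**Figure D1:**
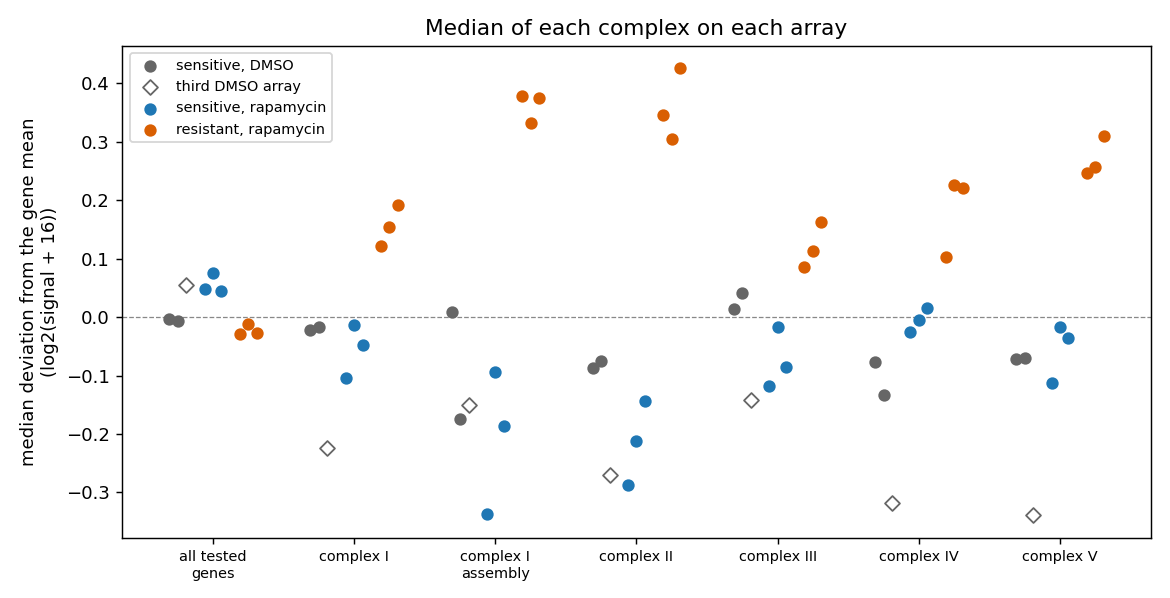
Median deviation of each complex on each of 9 arrays, in log2(signal + 16) relative to each gene's own mean (vertical axis), by complex (horizontal axis), with a point for each array. The resistant arrays lie above 0 in every complex and slightly below 0 over all tested genes, and the third DMSO array (open diamond) is the lowest of its group in complexes I to V.

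Differences below are in log2(signal + 16) with their standard error, with 3 arrays in a group. A gene is called where the Benjamini-Hochberg adjusted p of limma, over all 12715 genes tested, is under 0.05. Rapamycin in the sensitive cells left most of the members without a call: 19 of 87 rose and 9 fell, or 21.8% and 10.3%, against 20.4% and 15.2% of all tested genes. Their median change was 0.08, against 0.03 for all tested genes. The share that rose lies near the background, and the share that fell lies below it. Without the 8 assembly factors the counts were 17 and 7 of 79. Of the 28 calls, 11 held under every alternative processing tried. These were the rises of Atp5e, Cox7a2l, Ndufa1, Ndufa13, Ndufa6, Ndufa7, Ndufaf3 and Uqcrh and the falls of Ndufaf4, Ndufaf5 and Sdhd. Without the third DMSO array, 17 rose and 12 fell, where 2671 and 2035 of all 12715 tested genes did. The members' median was then 0.01, below the 0.08 of all tested genes.

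The resistant line stood differently against the same DMSO cells. There 51 of 87 members were higher and 5 lower, or 58.6% and 5.75%, where 25.9% and 25.8% of all tested genes were called higher and lower. The median difference was 0.30, against -0.07 for all tested genes. Without the third DMSO array 46 were higher and 8 lower, with a median of 0.28, against -0.005 for all tested genes. After quantile normalization 47 were higher and 13 lower, so the share of higher among the calls went from 91.1% to 78.3%. Of the 56 calls, 40 held under every alternative, 37 of them higher and 3 lower (Cox7b2, Ndufaf1 and Ndufv3). The smooth muscle marker sums given above were lower in the same line. The log2 difference between 3-prime and 5-prime probe sets of Actb, a sign of RNA quality, was 0.33 ± 0.02 (SD, n = 3) there against 0.17 ± 0.008 in DMSO cells. That difference had an exact two-sided permutation p of 0.1, the smallest that 3 against 3 arrays can give. The same measure of Gapdh was -0.29 ± 0.04 (SD, n = 3) against -0.31 ± 0.02, with an exact permutation p of 0.4. Between the resistant and the sensitive rapamycin cells Actb differed by 0.14 and Gapdh by 0.07, each with an exact permutation p of 0.1. Between sensitive rapamycin and DMSO cells they differed by 0.02 (exact permutation p = 0.4) and -0.05 (exact permutation p = 0.1). The part of the markers, Actb or Gapdh in the members' differences was not tested.

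Against the sensitive rapamycin cells, 47 of 87 members were higher in the resistant line and 10 lower, or 54.0% and 11.5%, beside 26.4% and 30.1% of all tested genes. The median was 0.28, against -0.08 for all tested genes. After quantile normalization 42 were higher and 19 lower, and the share of higher among the calls went from 82.5% to 68.9%. Of the 57 calls, 40 held under every alternative, 34 higher and 6 lower. All 3 comparisons draw on the same 9 arrays and share their groups, so they are not independent of each other.

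**Figure D2:**
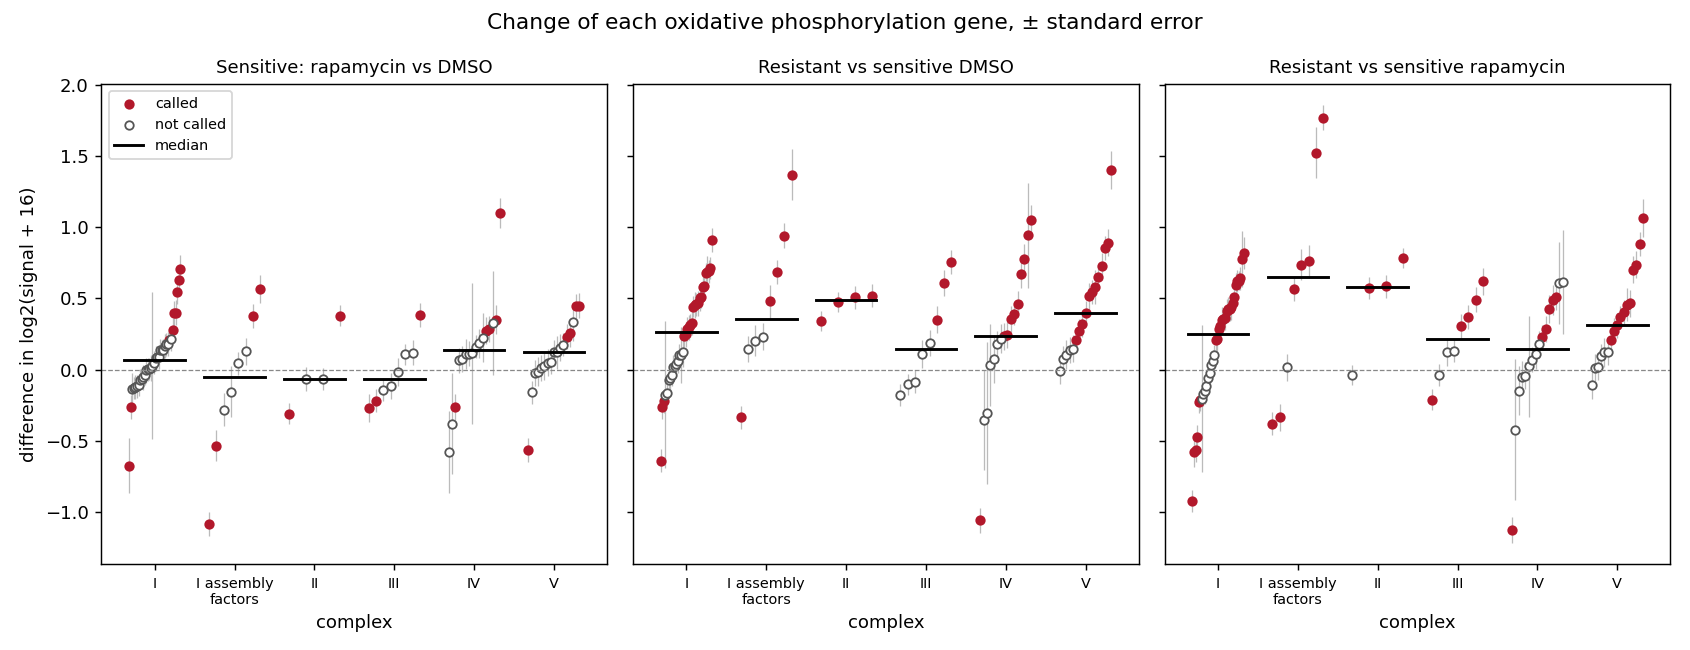
Difference in log2(signal + 16) of each of 87 genes (points, ± standard error, 3 arrays per group) by complex for the 3 comparisons; filled points were called by limma, and black bars are medians. Rapamycin in sensitive cells scatters the genes about 0, with Ndufaf4 lowest at -1.08 and Cox7a2l highest at 1.10, while in the resistant line against DMSO the medians run from 0.15 (complex III) to 0.49 (complex II).

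Complex I takes electrons from NADH. Of its 34 tested subunits, 7 rose and 2 fell under rapamycin, with a median of 0.06. The 7 are 20.6%, near the 20.4% of all tested genes. In the resistant line 19 were higher and 3 lower than in DMSO cells, with a median of 0.27. Against the sensitive rapamycin cells 19 were higher and 6 lower, with a median of 0.25. Each 19 is 55.9%, beside 25.9% and 26.4% of all tested genes. After quantile normalization the counts were 18 and 7, and 16 and 11. With probe sets averaged they were 13 and 3, and 14 and 5.

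The clearest rises under rapamycin were in accessory subunits of the Ndufa group, 5 of whose 12 tested genes rose and 1 fell. These are 41.7% and 8.33%, against 20.4% and 15.2% of all tested genes. Ndufa13, also known as GRIM-19, had signals of 7118, 7290 and 5506 in DMSO, 11582, 10733 and 9951 in rapamycin and 6795, 7069 and 7685 in the resistant line. The rapamycin arrays stood above all others, and the DMSO and resistant arrays overlapped. It rose by 0.70 ± 0.10 (limma adjusted p = 4.26e-05) and was lower in the resistant line than in the sensitive rapamycin cells, at -0.58 ± 0.10 (adjusted p = 0.00011). Ndufa1, a small membrane-arm subunit, was also highest in the sensitive rapamycin cells, with a rise of 0.40 ± 0.09 (adjusted p = 0.00169) and a difference of -0.56 ± 0.09 between the resistant and the sensitive rapamycin cells (adjusted p = 2.48e-05). Ndufa6 rose by 0.63 ± 0.08 (adjusted p = 8.48e-06), from signals of 2530, 2538 and 2271 to 3443, 4039 and 3924. Ndufa6 was also above DMSO in RR1, by 0.46 ± 0.08 (adjusted p = 0.000123).

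Ndufa7, an accessory subunit of the peripheral arm, differed in all 3 comparisons. Its signals were 5193, 5083 and 4728 in DMSO, 6973, 8054 and 6939 in rapamycin and 9082, 9459 and 9687 in the resistant line, and no group overlapped another. It rose by 0.55 ± 0.08 under rapamycin (adjusted p = 5.14e-05) and stood 0.91 ± 0.08 above DMSO in the resistant line (adjusted p = 5.68e-08), the largest difference among the complex I subunits there.

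The falls under rapamycin were fewer. Ndufb1, a membrane-arm subunit, went from 258, 258 and 389 to 128, 233 and 194, a difference of -0.67 ± 0.19 (adjusted p = 0.0117). It lost its call without the third DMSO array (adjusted p = 0.0583), without the first rapamycin array (0.0774) and without the variance trend (0.0663). Ndufa5 fell by 0.26 ± 0.08 (adjusted p = 0.0228, and up to 0.121 over the alternatives, without the first rapamycin array).

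The members higher in RR1 included catalytic subunits. Of the 3 tested subunits of the NADH-oxidising tip, Ndufv1 and Ndufs1 were above DMSO, by 0.68 ± 0.07 (adjusted p = 1.92e-07) and 0.58 ± 0.07 (adjusted p = 1.19e-06). Ndufv2 differed by 0.10 ± 0.08 (adjusted p = 0.302). Of the 3 tested subunits of the ubiquinone-reducing part, Ndufs8, which carries iron-sulfur clusters, had signals of 4324, 4452 and 3944 in DMSO, 4298, 4646 and 4600 in rapamycin and 6693, 6865 and 7329 in the resistant line. Both sensitive groups overlapped and the resistant arrays lay above them. The difference from DMSO was 0.71 ± 0.08 (adjusted p = 4.78e-07). Ndufs7 was higher by 0.29 ± 0.08 (adjusted p = 0.00868), and Ndufs3 differed by 0.02 ± 0.08 (adjusted p = 0.858).

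Ndufb9, a membrane-arm subunit, was higher than DMSO by 0.69 ± 0.08 (adjusted p = 1.27e-06). Ndufab1, which doubles as the mitochondrial acyl carrier protein, was higher than in DMSO by 0.69 ± 0.11 (adjusted p = 5.42e-05) and higher than in the sensitive rapamycin cells by 0.82 ± 0.11 (adjusted p = 5.03e-06). Averaging its 5 probe sets, most of them dim, ended both calls, at adjusted p = 0.181 and 0.114. Of the 11 Ndufb genes, 4 were higher and 1 lower than in DMSO, and 5 were higher and 2 lower than in the sensitive rapamycin cells. The latter 5 include Ndufb1 at 0.78 ± 0.19 (adjusted p = 0.00228) and Ndufb6 at 0.64 ± 0.08 (adjusted p = 1.33e-06). The higher Ndufb genes are 36.4% and 45.5%, against 25.9% and 26.4% of all tested genes. The lower ones are 9.09% and 18.2%, against 25.8% and 30.1%.

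Ndufv3, an accessory subunit at the NADH-oxidising tip, went the other way. Its signals were 4198, 4097 and 3568 in DMSO, 4511, 5124 and 4779 in rapamycin and 2537, 2520 and 2533 in the resistant line. The resistant arrays were almost identical to each other and below all the others. The difference from DMSO was -0.64 ± 0.08 (adjusted p = 2.49e-06) and that from the sensitive rapamycin cells was -0.92 ± 0.08 (adjusted p = 1.45e-08). Smaller differences from DMSO were in Ndufb11 (-0.26 ± 0.08, adjusted p = 0.0138) and Ndufa8 (-0.22 ± 0.08, adjusted p = 0.0254), and both lost their call with arrays centred on the 75th percentile (0.214 and 0.326). The 12 complex I subunits without a call in that comparison lay between -0.18 and 0.12. Among them, Ndufb4 was measured only by a dim probe set, with signals of 1.75 to 78.7, and had a standard error of 0.52.

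Complex I is built with the help of assembly factors that are not part of the finished enzyme, and 8 were measured. Under rapamycin 2 rose and 2 fell, or 25% each way, against 20.4% and 15.2% of all tested genes, with a median of -0.05. In the resistant line 4 were higher and 1 lower than in DMSO, with a median of 0.35. Against the sensitive rapamycin cells 5 were higher and 2 lower, with a median of 0.65. The 4 and 5 are 50% and 62.5%, against 25.9% and 26.4% of all tested genes.

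Ndufaf4, which acts with Ndufaf3 in an early assembly step, had signals of 880, 953 and 839 in DMSO, 370, 424 and 443 in rapamycin and 1397, 1461 and 1457 in the resistant line. The 3 groups lay apart, with rapamycin lowest and the resistant line highest. Ndufaf4 fell by 1.08 ± 0.09 under rapamycin (adjusted p = 2.39e-08), stood 0.68 ± 0.09 above DMSO in the resistant line (adjusted p = 2.87e-06) and 1.77 ± 0.09 above the sensitive rapamycin cells (adjusted p = 6.89e-12). A dimmer probe set of the same gene gave -0.93, 0.52 and 1.45. Its upstream sequence, printed above, holds the NRF1 letters on both strands, as does that of Atp5g2, which rose by 0.45 under rapamycin. Whether the letters bear on either change was not tested.

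Ndufaf3, its partner, did not move with it. Its signals rose from 515, 438 and 440 to 641, 680 and 763, by 0.57 ± 0.10 (adjusted p = 0.000165). Ndufaf5, a methyltransferase-like factor that modifies a complex I subunit, fell by 0.53 ± 0.11 (adjusted p = 0.000809), and was 0.74 ± 0.11 higher in the resistant line than in the sensitive rapamycin cells (adjusted p = 1.2e-05). Against DMSO the resistant line differed in Ndufaf5 by 0.20 ± 0.11 (adjusted p = 0.13).

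Ndufaf6 had the largest difference of the assembly factors from DMSO. Its signals were 343, 302 and 187 in DMSO, 210, 284 and 232 in rapamycin and 682, 860 and 633 in the resistant line. Both sensitive groups overlapped and every resistant array lay well above them. The difference from DMSO was 1.37 ± 0.18 (adjusted p = 4.78e-06), and the change under rapamycin was -0.15 ± 0.18 (adjusted p = 0.552). Ndufaf8, which works with Ndufaf5, rose by 0.38 ± 0.09 (adjusted p = 0.00209; 0.0696 with probe sets averaged) and was 0.94 ± 0.09 above DMSO in the resistant line (adjusted p = 5.65e-08). Ndufaf2, a factor found on late assembly intermediates, was 0.76 ± 0.12 higher in the resistant line than in the sensitive rapamycin cells (adjusted p = 1.89e-05). Ndufaf1, a factor for the membrane arm, was lower in the resistant line than in DMSO, at -0.33 ± 0.08 (adjusted p = 0.00197). Ndufaf7 was not called in any comparison.

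**Figure D3:**
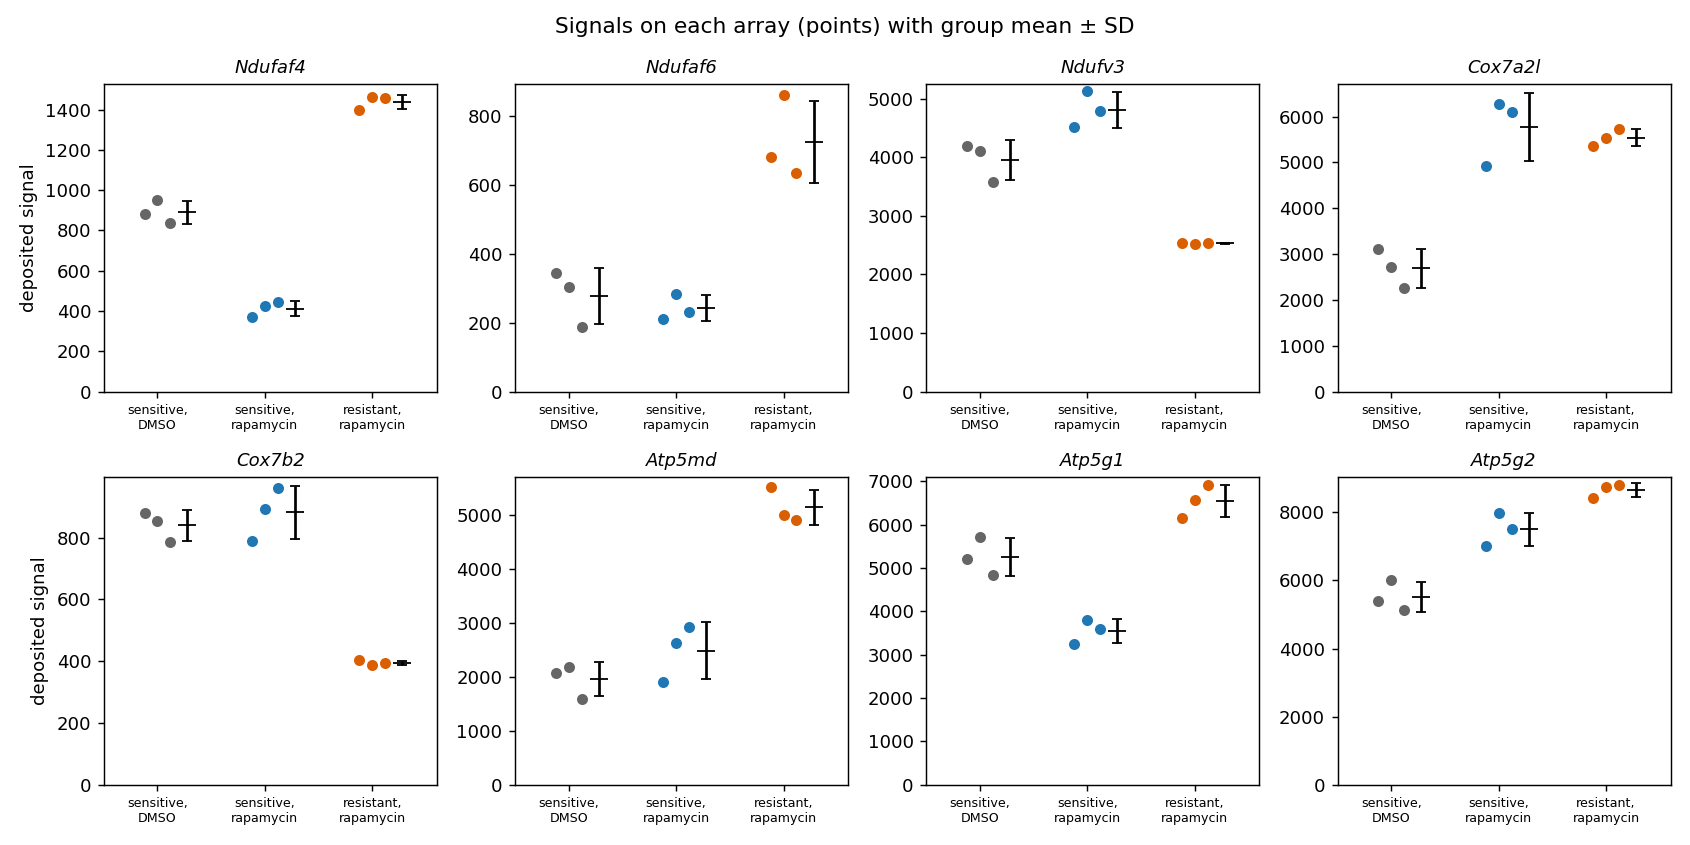
Deposited signal (vertical axis, from 0) of 8 members on the 3 arrays of each group (points), with the group mean ± SD beside them. Ndufaf4 and Atp5g1 are lowest in the sensitive rapamycin group, Cox7a2l is low in DMSO cells alone, and Ndufv3 and Cox7b2 are lowest in the resistant line.

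Complex II, succinate dehydrogenase, also works in the TCA cycle and is encoded by nuclear genes alone. All 4 genes were higher in the resistant line than in DMSO, with a median of 0.49 and 0 lower also at an unadjusted p under 0.05, and 3 of the 4 were higher than in the sensitive rapamycin cells, with a median of 0.58. The 4 and 3 are 100% and 75%, against 25.9% and 26.4% of all tested genes. Under rapamycin 1 rose and 1 fell, or 25% each way, against 20.4% and 15.2% of all tested genes.

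Sdha, the flavoprotein that oxidises succinate, rose by 0.38 ± 0.07 under rapamycin (adjusted p = 0.000402) and was 0.34 ± 0.07 above DMSO in the resistant line (adjusted p = 0.000551). Averaging its 4 probe sets, of which a pair had signals near background, ended both calls (adjusted p = 0.548 and 0.3). Sdhb, the iron-sulfur subunit, was 0.51 ± 0.08 above DMSO in the resistant line (adjusted p = 3.11e-05) and differed by -0.06 ± 0.08 under rapamycin (adjusted p = 0.569). Sdhc, a membrane anchor, gave 0.52 ± 0.08 (adjusted p = 3.86e-05) and -0.07 ± 0.08 (adjusted p = 0.583). A dimmer probe set of Sdhc gave 0.57 and 0.28, both called higher. The other anchor, Sdhd, had signals of 2471, 2515 and 2277 in DMSO, 1911, 1911 and 2032 in rapamycin and 3236, 3351 and 3523 in the resistant line, with no overlap between groups. It fell by 0.31 ± 0.07 (adjusted p = 0.00235) and was 0.48 ± 0.07 above DMSO in the resistant line (adjusted p = 2.15e-05). A dimmer probe set of Sdhd gave -0.81, called lower, under rapamycin and 0.11, not called, in the resistant line against DMSO.

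Complex III hands electrons to cytochrome c. Of its 8 genes 1 rose and 2 fell under rapamycin, or 12.5% and 25%, against 20.4% and 15.2% of all tested genes. In the resistant line 3 were higher than in DMSO and 0 lower (1 at an unadjusted p under 0.05), with a median of 0.15 that turned to -0.04 after quantile normalization, and 4 were higher and 1 lower than in the sensitive rapamycin cells, with a median of 0.22. The 3 and 4 higher genes are 37.5% and 50%, against 25.9% and 26.4% of all tested genes. By limma without the third DMSO array 3 were higher and 2 lower than in DMSO.

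Uqcrh, the hinge protein next to cytochrome c1, had signals of 4800, 4862 and 5095 in DMSO, 5932, 6761 and 6617 in rapamycin and 7588, 8385 and 8967 in the resistant line. The groups lay apart in that order. It rose by 0.38 ± 0.08 (adjusted p = 0.00152) and was 0.75 ± 0.08 above DMSO in the resistant line (adjusted p = 7.5e-07). Uqcr11, a small subunit, was 0.61 ± 0.09 above DMSO in the resistant line (adjusted p = 1.6e-05).

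Uqcrfs1, the Rieske iron-sulfur protein that passes electrons to cytochrome c1, was 0.35 ± 0.10 above DMSO (adjusted p = 0.00537) and 0.62 ± 0.10 above the sensitive rapamycin cells (adjusted p = 2.43e-05) in the resistant line. Its fall under rapamycin of 0.27 ± 0.10 (adjusted p = 0.0398) was lost without the first rapamycin array (0.229), which was the lowest of its group at 1559 against 2049 and 2116. It was also lost without any 1 of the DMSO arrays. Uqcrc1, a core protein, fell by 0.22 ± 0.08 (adjusted p = 0.0406), a call that 13 of the alternatives ended. The other core protein, Uqcrc2, was lower in the resistant line than in the sensitive rapamycin cells, at -0.21 ± 0.07 (adjusted p = 0.0219), and at -0.04 (0.704) with probe sets averaged. Uqcr10 was not called by its brightest probe set, with a change of -0.14 ± 0.08 under rapamycin, whereas its 2 dimmer probe sets gave -0.52 and -0.69 there and 0.68 and 1.07 between the resistant and the sensitive rapamycin cells.

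Complex IV, cytochrome c oxidase, had 16 tested genes. Under rapamycin 4 rose and 1 fell, with a median of 0.14. The 4 are 25%, against 20.4% of all tested genes. In the resistant line 9 were higher and 1 lower than in DMSO, with a median of 0.24 (6 and 1 without the third DMSO array), and 5 were higher and 1 lower than in the sensitive rapamycin cells, with a median of 0.14. The 9 are 56.25%, against 25.9% of all tested genes. The 5 are 31.2%, not far above the 26.4% of all tested genes. The 1 lower is 6.25% each time, against 25.8% and 30.1%.

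Cox7a2l, a relative of the Cox7a subunit that joins complexes III and IV into supercomplexes, rose most of all members under rapamycin. Its signals were 3102, 2710 and 2258 in DMSO, 4922, 6281 and 6099 in rapamycin and 5365, 5527 and 5724 in the resistant line. Both rapamycin-exposed groups lay above DMSO and overlapped each other. It rose by 1.10 ± 0.11 (adjusted p = 3.8e-07), and the resistant line was 1.05 ± 0.11 above DMSO (adjusted p = 2.8e-07). Between the resistant and the sensitive rapamycin cells it differed by -0.05 ± 0.11 (adjusted p = 0.729). The other 2 probe sets of Cox7a2l gave 0.86 and 0.84 under rapamycin and 0.90 and 0.94 in the resistant line against DMSO.

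Of the 9 ubiquitous subunits, 3 rose and 1 fell under rapamycin, and 7 were higher in the resistant line than in DMSO. The 3 and 1 are 33.3% and 11.1%, against 20.4% and 15.2% of all tested genes. The 7 are 77.8%, against 25.9%. Cox6c, whose signals were 9275, 9548 and 7361 in DMSO and 14202, 15500 and 15007 in the resistant line, differed by 0.78 ± 0.10 (adjusted p = 3.67e-06). Under rapamycin it rose by 0.35 ± 0.10 (adjusted p = 0.0101, and up to 0.140 over the alternatives). Cox8a, the ubiquitous form of the smallest subunit, was 0.67 ± 0.10 above DMSO (adjusted p = 2.68e-05), and Cox6b1, a subunit on the intermembrane side, 0.46 ± 0.09 (adjusted p = 0.000434). Under rapamycin Cox6b1 rose by 0.28, a call that did not hold under every alternative. Cox5a, which lies on the matrix side, fell by 0.26 ± 0.09 under rapamycin (adjusted p = 0.0322, and up to 0.131) and was 0.51 ± 0.09 higher in the resistant line than in the sensitive rapamycin cells (adjusted p = 0.000109). Cox4i1, the ubiquitous form of the regulatory subunit, rose by 0.27 ± 0.10 (adjusted p = 0.0325), a call lost when arrays were centred on the 75th percentile (0.155). Cox7c rests on a dim probe set, with signals of 11.6 to 40.4 in DMSO and 52.2 to 81.3 in the resistant line, a difference of 0.94 ± 0.37 (adjusted p = 0.0395). That call was lost without the first or the third DMSO array or any 1 resistant array, at up to 0.167.

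The tissue isoforms of complex IV were mostly near background. Cox6a2 and Cox7a1, the heart and skeletal muscle forms, had signals of 55.8 to 192 and 29.1 to 91.2 over the 9 arrays and were not called, and Cox8b, listed at 3.23 to 29.7, was not tested. Their ubiquitous counterparts were called in part: Cox7a2 was 0.36 ± 0.09 above DMSO in the resistant line (adjusted p = 0.00323), while Cox6a1 differed by 0.22 ± 0.10 (adjusted p = 0.0878). Cox4i2, the lung form, had signals of 5.08 to 104 and was not called. Ndufa4, first described in complex I and now placed with complex IV, was 0.39 ± 0.08 above DMSO in the resistant line (adjusted p = 0.000603), and its relative Ndufa4l2 was listed at 4.84 to 40.2.

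The exception was Cox7b2, a form of Cox7b known from testis. Its signals were 880, 855 and 784 in DMSO, 790, 893 and 961 in rapamycin and 403, 388 and 394 in the resistant line. The sensitive groups overlapped and the resistant arrays lay below both. The resistant line differed by -1.06 ± 0.09 from DMSO (adjusted p = 2.28e-08), the largest negative difference of any member in that comparison, and rapamycin in sensitive cells by 0.07 ± 0.09 (adjusted p = 0.616).

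**Figure D4:**
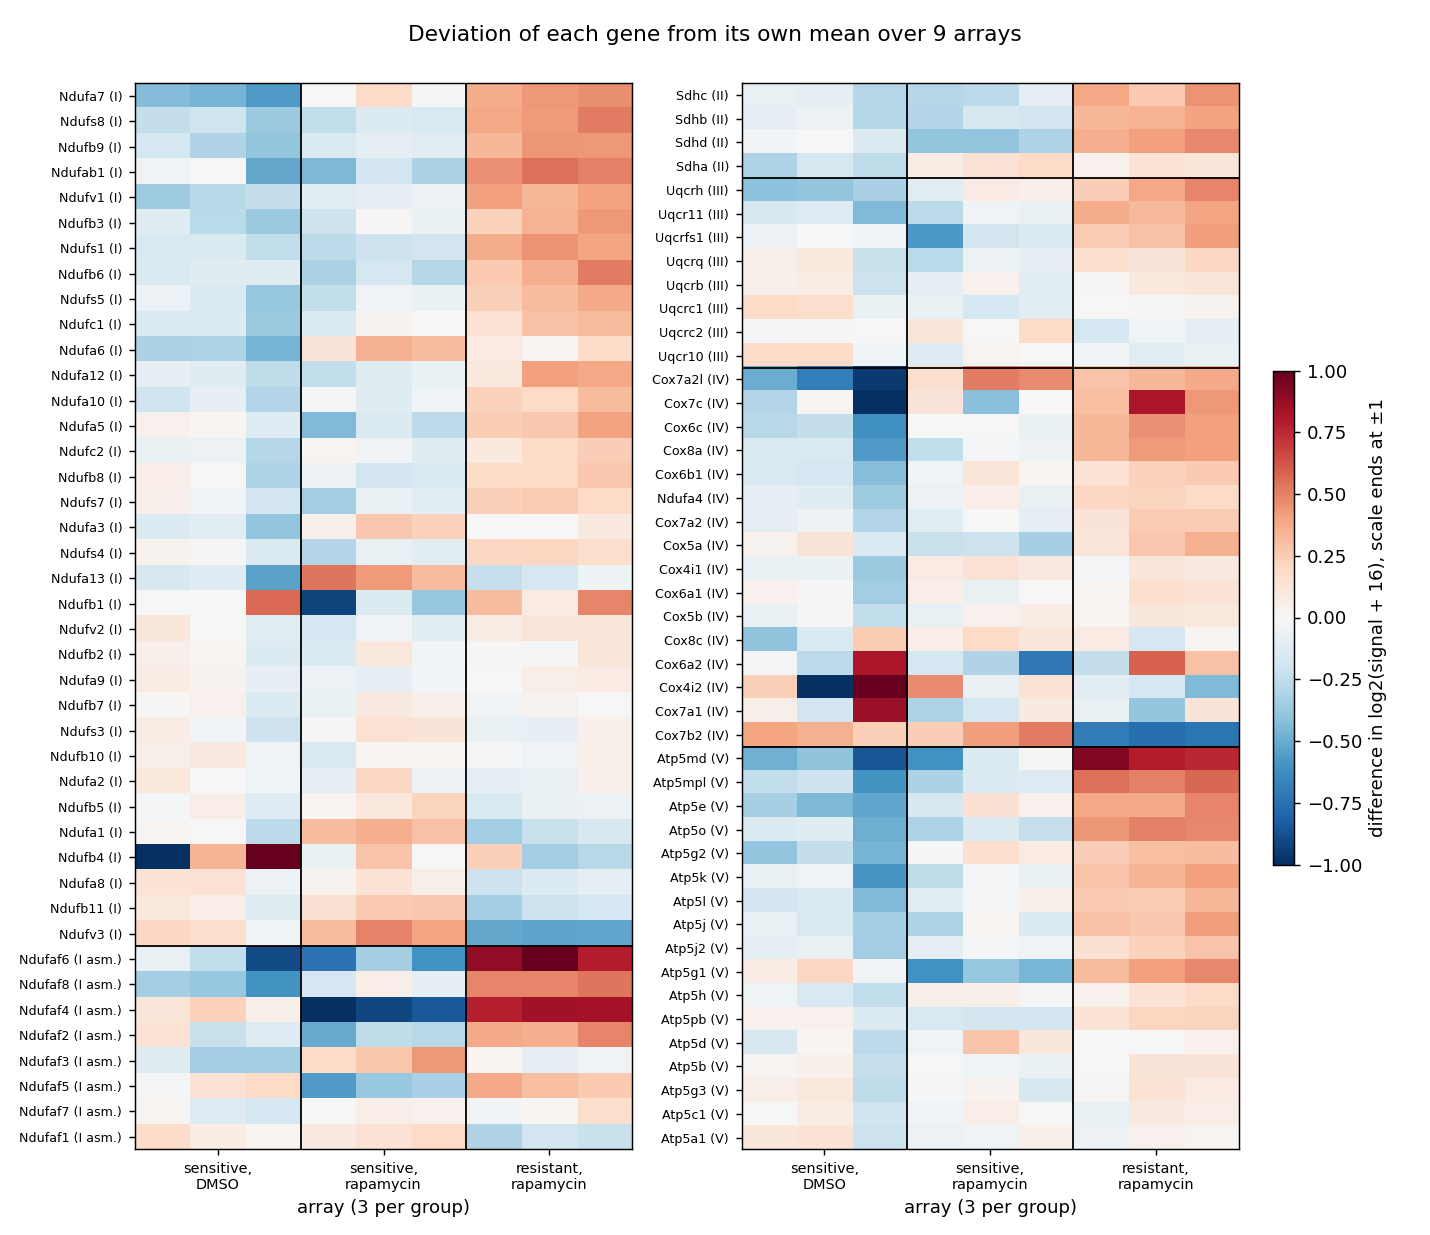
Deviation of each of the 87 tested genes from its own mean over 9 arrays, in log2(signal + 16), as colour (red above, blue below, colours ending at 1 either way), with genes in rows by complex and arrays in columns by group. Most rows are red in the resistant group, while Ndufv3 and Cox7b2 are blue there and the dim genes Ndufb4, Cox4i2 and Cox7a1 vary within the DMSO group.

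Complex V, the ATP synthase, had 17 tested genes. Under rapamycin 4 rose and 1 fell, with a median of 0.12 that became -0.02 without the third DMSO array. The 4 are 23.5%, against 20.4% of all tested genes. They include Atp5e at 0.45, a call that held under every alternative, and Atp5d at 0.26, a call that did not. In the resistant line 12 were higher than in DMSO, with a median of 0.40, and 11 were higher than in the sensitive rapamycin cells, with a median of 0.31. The 12 and 11 are 70.6% and 64.7%, against 25.9% and 26.4% of all tested genes. By limma 0 were lower in either, also at an unadjusted p under 0.05. Of all tested genes, 25.8% and 30.1% were called lower. After quantile normalization 10 were higher and 1 lower in each, Atp5a1 being the lower one against DMSO at -0.18 (adjusted p = 0.00405) and Atp5d against the sensitive rapamycin cells at -0.23 (adjusted p = 0.00641), and the medians were 0.23 and 0.16.

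In the catalytic F1 head, 1 of 5 genes (20%, against 25.9% of all tested genes) was higher in the resistant line than in DMSO. It was the small subunit Atp5e, at 0.85 ± 0.09 (adjusted p = 1.95e-07). The main F1 subunits did not pass the test by their brightest probe sets. Atp5b, the catalytic beta subunit, differed by 0.14 ± 0.09 (adjusted p = 0.221) and Atp5c1, the rotating gamma subunit, by 0.07 ± 0.09 (adjusted p = 0.519). Atp5a1, the alpha subunit, differed by -0.01 ± 0.09 (adjusted p = 0.939), with a dimmer probe set at -0.41 (adjusted p over all probe sets 0.000347). Dimmer probe sets went the other way for Atp5c1, at 1.29 (0.000173, mean signals of 62.7 in DMSO and 172 in the resistant line), and for Atp5d, the delta subunit, at 0.27 (0.0454). All 4 genes of the peripheral stalk and all 5 other membrane subunits (100% of each, against 25.9% of all tested genes) were higher than in DMSO. Their medians were 0.39 and 0.58. Among the stalk genes Atp5o was highest at 0.72 ± 0.09 (adjusted p = 4.14e-06), and Atp5pb, at 0.21 ± 0.08 (adjusted p = 0.0381), lost its call under several alternatives. The call of Atp5h, at 0.27, did not hold under every alternative either. The calls of the 5 other membrane subunits against DMSO held under every alternative. Whether the parts differ from each other was not tested.

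Atp5md, a small membrane subunit linked to pairing of the enzyme into dimers, had the largest difference of all members between the resistant line and DMSO. Its signals were 2071, 2188 and 1594 in DMSO, 1900, 2620 and 2925 in rapamycin and 5503, 5001 and 4904 in the resistant line. The resistant arrays lay far above the others, which overlapped. The difference was 1.4 ± 0.13 (adjusted p = 9.96e-08), and rapamycin in sensitive cells gave 0.33 ± 0.13 (adjusted p = 0.06). Atp5mpl, another small membrane subunit, followed at 0.89 ± 0.09 (adjusted p = 3.63e-07) and 0.16 ± 0.09 (adjusted p = 0.224).

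The c subunits form the rotating ring in the membrane, and 3 genes encode them with different import sequences. Atp5g1 had signals of 5203, 5710 and 4844 in DMSO, 3241, 3799 and 3599 in rapamycin and 6153, 6569 and 6900 in the resistant line. Atp5g2 had 5399, 5998 and 5131 in DMSO, 7007, 7977 and 7518 in rapamycin and 8413, 8740 and 8788 in the resistant line. In both genes the groups lay apart, but the rapamycin arrays were the lowest for Atp5g1 and between the others for Atp5g2.

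Under rapamycin Atp5g1 fell by 0.56 ± 0.09 (adjusted p = 5.15e-05) and Atp5g2 rose by 0.45 ± 0.08 (adjusted p = 0.000399). Against DMSO the resistant line was higher in both, by 0.32 ± 0.09 (adjusted p = 0.00461) and 0.65 ± 0.08 (adjusted p = 3.7e-06). Averaging in their dim probe sets, 1 of Atp5g1 at a signal of 16.1 in DMSO and 2 of Atp5g2 at 68.9 and 13.4, ended these calls, at adjusted p = 0.128 and 0.0876 under rapamycin and 0.549 and 0.0509 in the resistant line. For Atp5g1 it also turned the difference from DMSO to -0.13. Atp5g3, the remaining gene, differed by -0.02 ± 0.10 under rapamycin (adjusted p = 0.926) and differed by 0.11 ± 0.10 in the resistant line (adjusted p = 0.411).

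Other genes of the same system were taken from lists of named genes. ND5, a core subunit of complex I encoded by mitochondrial DNA, was the only mitochondrially encoded subunit with a usable probe set. Its signals were 6080, 6137 and 5896 in DMSO, 18323, 17892 and 14008 in rapamycin and 5531, 6239 and 6272 in the resistant line. The sensitive rapamycin arrays lay far above the rest. It rose by 1.46 ± 0.10 (adjusted p = 3.58e-09), more than any nuclear member, and the resistant line differed from DMSO by -0.01 ± 0.10 (adjusted p = 0.956).

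The electron carrier cytochrome c, Cycs, fell by 0.69 ± 0.08 under rapamycin (adjusted p = 3.46e-06) and was 0.45 ± 0.08 above DMSO in the resistant line (adjusted p = 0.000176). Cyc1, the cytochrome c1 subunit of complex III, fell by 0.41 ± 0.08 (adjusted p = 0.000526) and differed by 0.15 ± 0.08 in the resistant line (adjusted p = 0.131). Of 12 genes for import of proteins into mitochondria, 8 fell under rapamycin, with a median of -0.43, and 9 were higher and 1 lower in the resistant line than in DMSO. The latter include Tomm70a, a receptor of the outer membrane, at 1.28 ± 0.09 (adjusted p = 1.52e-09). Under rapamycin the channel protein Tomm40 fell by 0.88 ± 0.09 (adjusted p = 9.45e-07) and the chaperone Hspa9 by 0.85 ± 0.07 (adjusted p = 4.83e-08). Of 18 complex IV assembly genes, 3 rose and 7 fell under rapamycin, and 8 were higher and 2 lower in the resistant line than in DMSO. The falls are 66.7% of the import list and 38.9% of the complex IV assembly list, against 15.2% of all tested genes. The 3 rises are 16.7% of the latter list, against 20.4%. In the resistant line 75% and 44.4% were higher, against 25.9%, and 8.33% and 11.1% lower, against 25.8%.

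Of the 7 complex I assembly genes outside the name rule, 2 fell under rapamycin, Acad9 by 0.81 ± 0.12 (adjusted p = 5.95e-05) and Ecsit by 0.58 ± 0.10 (adjusted p = 0.000176), and 5 were higher in the resistant line than in DMSO. The 2 and 5 are 28.6% and 71.4% of these 7, against 15.2% and 25.9% of all tested genes. Atpif1, the inhibitor of ATP hydrolysis by complex V, rose by 0.53 ± 0.08 (adjusted p = 9.26e-05) and was 1.09 ± 0.08 above DMSO in the resistant line (adjusted p = 7.04e-09). Of 12 coenzyme Q synthesis genes, 1 rose and 3 fell under rapamycin, and 7 were higher and 1 lower in the resistant line. Of 12 TCA cycle genes the counts were 2 and 3, and 5 and 1. For rapamycin these are 8.33% and 25% of the first list and 16.7% and 25% of the second, against 20.4% and 15.2% of all tested genes. In the resistant line they are 58.3% and 8.33%, and 41.7% and 8.33%, against 25.9% and 25.8%. The 5 higher TCA cycle genes include Suclg2, a subunit of succinyl-CoA ligase, at 1.41 ± 0.07 (adjusted p = 1.9e-11) and Idh2, the NADP-linked isocitrate dehydrogenase, at 1.38 ± 0.08 (adjusted p = 1.61e-10).

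**Figure D5:**
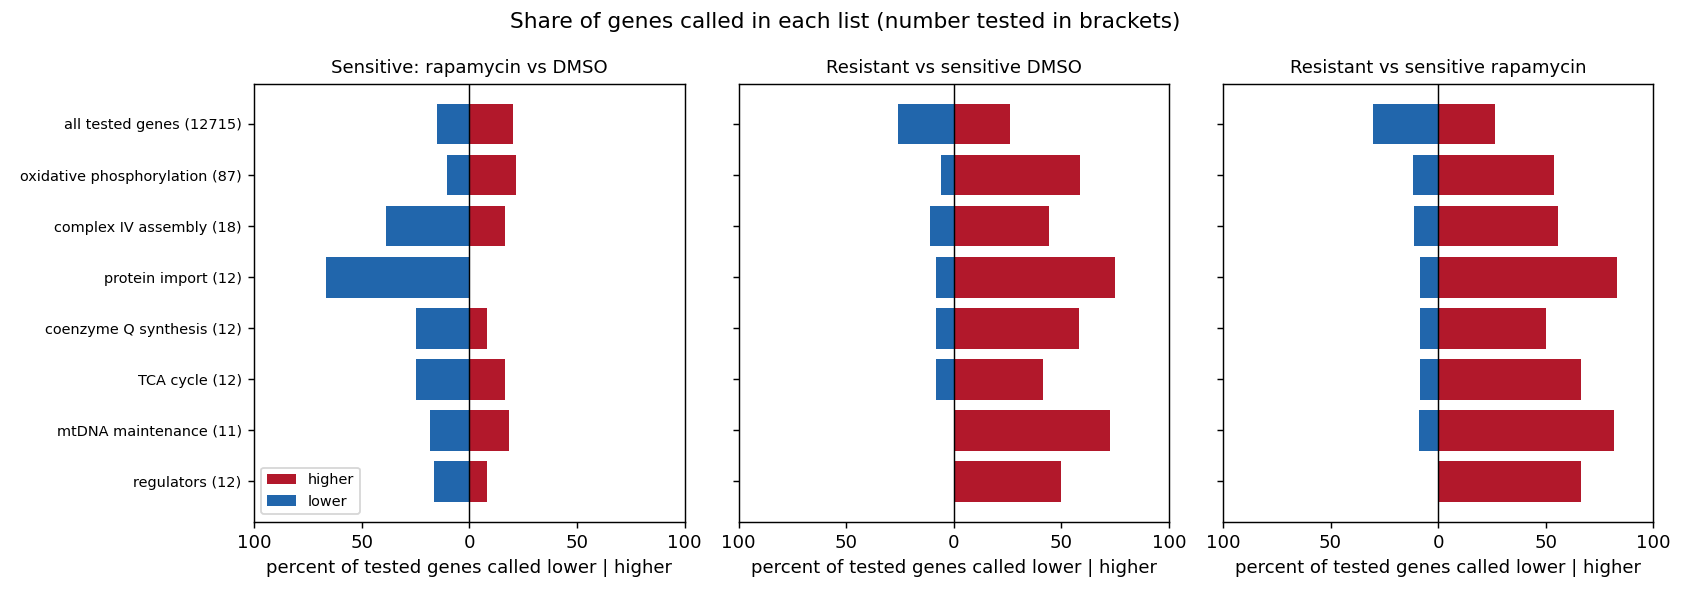
Percent of tested genes called higher (right, red) and lower (left, blue) by limma in each list, for the 3 comparisons. Under rapamycin in sensitive cells the oxidative phosphorylation genes lie near all tested genes, at 21.8% and 10.3%, while the 12 import genes were called lower in 8 cases, and in the resistant line the red bars are longer than that of all tested genes in each list shown.

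Among 12 regulators of mitochondrial genes, 1 rose and 2 fell under rapamycin, and 6 were higher in the resistant line than in DMSO. The 1 and 2 are 8.33% and 16.7%, against 20.4% and 15.2% of all tested genes, and the 6 are 50%, against 25.9%. The fall in Nrf1, the factor whose letters were searched above, was 0.71 ± 0.18 (adjusted p = 0.0041), from signals of 226, 170 and 233 to 100, 147 and 120. Its signals in RR1 were 206, 212 and 258, which overlapped DMSO. A link between Nrf1 and the members was not tested. Myc, a growth factor-responsive transcription factor, had signals of 207 to 345 in DMSO, 412 to 463 in rapamycin and 4147 to 4342 in the resistant line. The resistant line was 3.81 ± 0.13 above DMSO (adjusted p = 2.29e-13), and rapamycin in sensitive cells gave 0.57 ± 0.13 (adjusted p = 0.00258). The PGC-1 family of coactivators was higher too: Ppargc1b by 2.18 ± 0.27 (adjusted p = 3.23e-06), from 21.8 to 67.2 up to 228 to 264, Ppargc1a by 1.63 ± 0.40 (adjusted p = 0.00232) and Pprc1 by 1.04 ± 0.12 (adjusted p = 9.28e-07). Gabpa was higher by 0.27 ± 0.08 (adjusted p = 0.0111), and Esrra differed by 0.22 ± 0.19 (adjusted p = 0.364). Of 11 genes for maintenance and transcription of mitochondrial DNA, 8 (72.7%) were higher in RR1 than in DMSO, against 25.9% of all tested genes. Tfam, which packages that DNA, fell by 0.53 ± 0.08 under rapamycin (adjusted p = 5.36e-05) and was 0.45 ± 0.08 above DMSO in the resistant line (adjusted p = 0.00014).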

How the data were processed

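RNA of 9 samples, 3 per group, was measured on Affymetrix mouse expression arrays. The values are signal intensities on a linear scale, which the authors deposited for each probe set; GCOS 1.4 is named per the submitters' processing notes, and the summary algorithm is not given in the sources used here. The number of arrays limits the precision. Nothing in the labels tells separate cultures from repeat hybridisations, so each p-value weighs a difference only against array-to-array spread, which can be technical.

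Of 45101 probe sets, 64 were controls, 34945 had 1 gene symbol, 932 several and 9160 none in the platform table. The brightest single-symbol probe set stood for each of 18193 genes. Values were taken as log2(signal + 16), which understates changes of dim genes, and genes with a mean above the 40 percentile (a signal of 22.2) were tested, 12715 in all. The 3 groups were fitted together with limma 3.58.1 (R 4.3.3; lmFit, eBayes with a trend), and a Benjamini-Hochberg adjusted p under 0.05 was a call. The script was first tested on simulated data.

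The arrays were not treated as paired by replicate number. Members chosen to be named were, per complex and comparison, up to 3 called in each direction with the largest change, with the isoform pairs, c subunits and complex II. Not every difference of each is printed. Other genes were up to 3 per list and a set of regulators. The members and lists were chosen with earlier results of these data known. Alternatives changed the pseudocount, filter, scaling, probe set rule, variance model, samples in the fit, replicate block and arrays kept.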

Additional observations from a re-analysis of the deposited data

How the results depend on the processing

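For rapamycin against DMSO, 19 members were called higher and 9 lower. Centring arrays on the 75th percentile gave 12 higher, averaging probe sets gave 12 higher, quantile normalization gave 14 lower, and eBayes without a trend gave 4 lower. Leaving out 1 array at a time gave 13 to 20 higher and 4 to 12 lower, the 4 without the first rapamycin array and the 12 without the third DMSO array. For the resistant line against DMSO, with 51 higher and 5 lower, the 75th percentile gave 3 lower and quantile normalization 13, and leaving out 1 array gave 45 to 52 higher and 3 to 8 lower, the 3 without the first DMSO array or the first resistant array and the 8 without the third DMSO array. Against the sensitive rapamycin cells, with 47 higher and 10 lower, the same settings gave 6 and 19 lower, and leaving out 1 array gave 41 to 50 higher and 7 to 12 lower. The share of higher among the calls for rapamycin against DMSO was 67.9%, and ran from 57.1% with probe sets averaged to 82.6% without the first rapamycin array.

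Of the members whose difference changed sign under an alternative, 4 are given here, and the cause was not tested. Other members also changed sign, since the complex V median under rapamycin turned negative without the third DMSO array. Against DMSO in the resistant line, Ndufb7 was at -0.15 after quantile normalization (limma adjusted p = 0.0111), and with probe sets averaged Atp5g1 was at -0.13 (0.549) and Ndufs4 at -0.16 (0.461). Between the resistant and the sensitive rapamycin cells, Uqcr10 was at 0.57 with probe sets averaged (2.77e-05). Centring on the 75th percentile moved the median of all tested genes between the resistant and the sensitive rapamycin cells from -0.08 to 0.05, and that of the members from 0.28 to 0.41.

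With the replicate number as a block, 18 members were higher and 8 lower under rapamycin, 48 and 5 in the resistant line against DMSO, and 47 and 10 against the sensitive rapamycin cells. Correlations between same-numbered arrays of different groups ran from -0.085 to 0.015, where those between other arrays ran from -0.05 to 0.075. These values cannot show whether same-numbered arrays share a batch, and the labels give none.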
